A study of Mus musculus with 8 samples.

Results

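The genes described here encode the subunits and complex I assembly factors of the mitochondrial respiratory chain that are carried in the nuclear genome. They were taken from the deposited count tables by symbol: names of the NADH dehydrogenase family (Nduf), succinate dehydrogenase (Sdh), the cytochrome bc1 complex (Uqcr), cytochrome c oxidase (Cox4 to Cox8) and ATP synthase (Atp5), with pseudogene symbols left out and at least 50 counts summed over the 8 libraries. Of the 33885 symbols in the tables, 92 matched these names and 88 had the 50 counts. They comprised 35 subunits of complex I, 8 complex I assembly factors, 4 subunits of complex II, 8 of complex III, 16 of complex IV and 17 of complex V. The other 4 symbols, Cox4i1, Cox6a2, Cox8c and Ndufa13, were listed at 0 in all 8 libraries, as were the 15 mitochondrially encoded genes looked for, so no level is given for them.

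Complexes I and II pass electrons from NADH and succinate to ubiquinone, complex III passes them to cytochrome c, and complex IV reduces oxygen. The proton gradient that complexes I, III and IV build up is used by complex V, the ATP synthase. Most of the ATP that neurons spend on ion pumping and synaptic transmission comes from this pathway, and each complex other than II joins nuclear-encoded subunits with subunits made inside the mitochondrion.

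Total RNA of 2 brain regions was sequenced with 2 libraries per group, all from adult males of the inbred mouse strain C57Bl6J. The nucleus accumbens (NAc), a ventral striatal region of the reward circuit, came from mice 15 minutes after place-preference conditioning with cocaine (7.5 mg/kg, injected into the peritoneum) and from mice left in the home cage. The medial prefrontal cortex (mPFC) came from mice 15 minutes after social defeat by an aggressive CD1 male and from mice left in the home cage. The titles of the mPFC libraries of both groups carry the label WT (wild type), and those of the NAc libraries carry no such label. Home-cage mice were the only controls, with neither a saline injection nor a non-aggressive encounter among the groups used here, and no experience was measured in both regions. The labels do not say whether the libraries of a group came from separate animals or from pooled tissue, so p-values reflect no more than the spread among these libraries.

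Library totals ranged from 111901829 to 179479978 counts, and 77 of the 88 genes had at least 1000 counts in every library. Striatal markers (9 genes such as Drd1, Drd2 and Adora2a) summed to 4575 and 1911 CPM (counts scaled by library size) in cocaine NAc and 5254 and 1653 CPM in home-cage NAc, against 556 and 591 CPM after defeat and 539 and 636 CPM in the mPFC home-cage libraries. Every NAc library was thus above every mPFC library, but replicate 2 of both NAc groups had less of these markers than replicate 1 and more of the 8 cortical glutamatergic markers, which summed to 906 and 1379.5 CPM after cocaine and 742 and 1524 CPM in NAc home-cage libraries. The same cortical markers summed to 2401 and 2218 CPM after defeat and 2353 and 2435 CPM in mPFC home-cage libraries. The part that dissection has in the results was not tested, and results that 1 library decides are given with and without it.

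All 88 genes passed the low-count filter in every comparison. Together they summed to 3378 and 3287 CPM after cocaine and 3386 and 3499.6 CPM in home-cage NAc. They summed to 3879 and 3667 CPM in the defeat libraries and 3526 and 3622 CPM in the mPFC home-cage libraries. Both defeat libraries were thus above the other 6, and the 2 cocaine libraries were the lowest. ATP synthase genes held the largest part of this sum, with 1292 and 1244 CPM after cocaine, 1292 and 1326 CPM in NAc home-cage libraries, 1532 and 1426 CPM after defeat and 1363 and 1427 CPM in mPFC home-cage libraries. Complex I genes, although 35 in number, summed to 915 and 883 CPM after cocaine, 915 and 923 CPM in NAc home-cage libraries, 975 and 936 CPM after defeat and 915 and 925 CPM in mPFC home-cage libraries.

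Promoter sequences from RefSeq (GRCm38.p6, 250 bases before the annotated start) were found for 75 of the 88 genes, with 80 promoters in all. They were searched on both strands for 3 short motifs of factors known to act on respiratory genes. The NRF1 motif GCGCANGCG stood in 20% of the 80 promoters, against 5.16% of all 32851 promoters in the table and 8.3% of the promoters of the genes tested in any comparison here. The ETS motif CCGGAAG, which the GA-binding protein (NRF2) recognises, stood in 17.5%, against 6.91% of all promoters and 10.5% of those of tested genes. The YY1 motif ATGGCGG stood in 7.5%, against 2.21% and 3%. None of the 3 motifs contains another. These shares are descriptions of the letters in this window. A total of 15 genes held the NRF1 motif, among them Atp5c1, Atp5g2, Cox6a1, Ndufa8, Sdha and Sdhd, and 14 held the ETS motif, among them Atp5e, Cox6b1, Ndufs3 and Uqcrh. Atp5h, Atp5l, Cox6a1 and Sdhd held both.

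The promoters of 4 genes that the regional comparisons below turn on are shown 5′ to 3′ on the gene's strand, with NRF1 matches on either strand in capitals. Sdha (chr13:74350241-74350490, minus strand) held 3 matches and Ndufa8 (chr2:36049339-36049588, minus strand) held 2, while Cox8a (chr19:7217617-7217866, minus strand) and Ndufaf2 (chr13:108158626-108158875, minus strand) held none of the 3 motifs.
Sdha: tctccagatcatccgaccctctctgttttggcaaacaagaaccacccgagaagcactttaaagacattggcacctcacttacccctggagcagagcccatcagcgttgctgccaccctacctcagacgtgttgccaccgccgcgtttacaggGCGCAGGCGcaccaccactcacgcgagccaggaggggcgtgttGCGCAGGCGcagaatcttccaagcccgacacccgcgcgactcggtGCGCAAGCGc
Ndufa8: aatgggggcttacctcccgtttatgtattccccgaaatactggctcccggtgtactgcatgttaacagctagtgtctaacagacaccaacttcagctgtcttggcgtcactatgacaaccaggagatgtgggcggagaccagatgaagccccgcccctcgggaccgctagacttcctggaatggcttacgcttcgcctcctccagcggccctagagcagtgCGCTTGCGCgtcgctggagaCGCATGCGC
Cox8a: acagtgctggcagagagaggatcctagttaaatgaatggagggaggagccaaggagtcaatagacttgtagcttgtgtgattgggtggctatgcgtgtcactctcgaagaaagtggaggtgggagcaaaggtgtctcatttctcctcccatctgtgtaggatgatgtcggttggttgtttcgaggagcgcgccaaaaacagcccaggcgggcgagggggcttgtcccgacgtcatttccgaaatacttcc
Ndufaf2: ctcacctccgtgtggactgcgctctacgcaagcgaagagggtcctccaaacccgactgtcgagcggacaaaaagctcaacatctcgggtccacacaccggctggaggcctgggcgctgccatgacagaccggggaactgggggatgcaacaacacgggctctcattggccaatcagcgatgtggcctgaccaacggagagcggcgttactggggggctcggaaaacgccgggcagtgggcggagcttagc

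Levels of different genes are compared here as CPM per kilobase of exon, averaged over the 8 libraries and given with the SD over them (n = 8). Exon length is that of the merged exons of all annotated transcripts of a gene, and the order of genes depends on it. The 88 genes spanned a 911-fold range on this scale, with a median of 13.1 CPM per kb. The highest was Cox8a, a small subunit of complex IV, at 204 ± 25.1 CPM per kb, followed by its fellow complex IV subunit Cox6a1 at 151 ± 15.6 CPM per kb. The catalytic subunits of ATP synthase came next, beta (Atp5b) at 115 ± 11.0 CPM per kb and alpha (Atp5a1) at 102 ± 7.33 CPM per kb. Atp5b was above Atp5a1 in 8 of 8 libraries. The 4 lowest genes were all tissue isoforms of complex IV, down to 0.223 ± 0.0665 CPM per kb for Cox6b2.

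**Figure D1:**
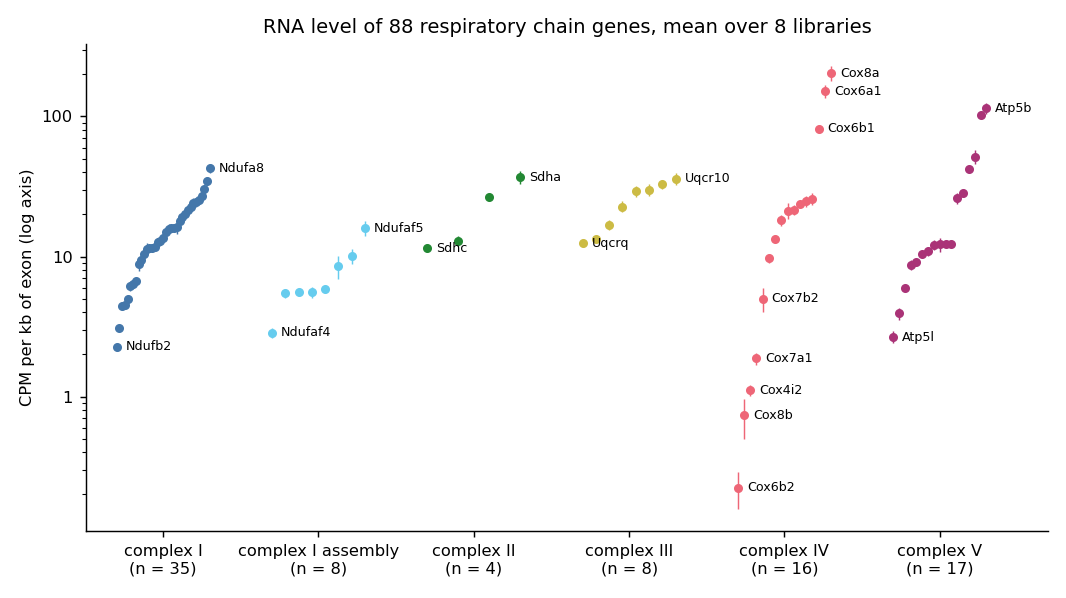
RNA level of each of the 88 genes in CPM per kb of exon (log axis), by complex and sorted within it. Dots are means over the 8 libraries and bars the SD. Cox8a is highest and Cox6b2 lowest, both in complex IV, while complex II spans a 3.21-fold and complex III a 2.87-fold range.

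In complex I, the 7 core genes, which make up the arm that takes electrons from NADH and passes them to ubiquinone, had a median of 19.0 CPM per kb. Ndufv1, the subunit that binds flavin and oxidises NADH, stood at 16.0 ± 0.877 CPM per kb, and Ndufs1, the largest iron-sulfur subunit, was lowest at 4.50 ± 0.221 CPM per kb. Ndufs1 has merged exons of 8086 bp and was not lowest in counts, with 40682 over all libraries against 28798 for the core gene Ndufs8 (1291 bp). The 28 accessory subunits had a median of 12.2 CPM per kb and were led by Ndufa8, a subunit of the intermembrane side, at 42.8 ± 3.38 CPM per kb. The 8 assembly factors, which join the modules of complex I and are not part of the finished enzyme, were lower, with a median of 5.71 CPM per kb and a highest value of 16.0 ± 2.04 CPM per kb for Ndufaf5.

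In complex II, Sdha, the flavoprotein that oxidises succinate, was highest at 36.8 ± 3.87 CPM per kb, and Sdhb, the iron-sulfur subunit, stood at 26.8 ± 1.104 CPM per kb. The membrane anchors were lower, with Sdhd at 12.9 ± 1.04 CPM per kb and Sdhc at 11.5 ± 0.747 CPM per kb, and Sdhd was above Sdhc in 8 of 8 libraries. The 8 complex III genes lay closest together, over a 2.87-fold range. The core proteins Uqcrc1 (30.1 ± 3.13 CPM per kb) and Uqcrc2 (29.3 ± 2.61 CPM per kb) lay close together, with Uqcrc1 above Uqcrc2 in 6 of 8 libraries, and the Rieske iron-sulfur protein Uqcrfs1 stood at 22.7 ± 2.04 CPM per kb.

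Some subunits of complex IV have paired isoforms, a common one and one best known from another tissue such as heart, skeletal muscle, lung or testis. The common subunit genes, not all of which have such a partner, had a median of 23.1 CPM per kb over 10 genes. The tissue isoforms had 1.11 CPM per kb over 5 genes. Cox7a1, the heart and muscle partner of Cox7a2, made up between 6.11% and 8.87% of the pair in the 8 libraries on the per-kb scale. Cox8b, the muscle partner of Cox8a, made up between 0.232% and 0.699%, and Cox6b2, the testis partner of Cox6b1, between 0.140% and 0.411%. Cox7b2, also known from testis, made up between 15.1% and 26.3% of its pair with Cox7b. The Cox7b2 gene body spans 105 kb and its exons 0.542 kb, and whether intronic reads were counted is not given in the sources used here.

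These low isoforms rest on few counts. Cox6b2 had 39 and 37 counts after cocaine and 61 and 46 in NAc home-cage libraries, against 27 and 34 after defeat and 17 and 21 in mPFC home-cage libraries. Cox8b had 62 and 41 counts after cocaine and 48 and 40 in NAc home-cage libraries, against 28 and 29 after defeat and 25 and 24 in mPFC home-cage libraries. For both genes every NAc library lay above every mPFC library in CPM. Of the 4 muscle markers, Acta1 was at 0 and the list summed to 46.1 and 19.1 CPM after cocaine and 46.8 and 18.4 CPM in NAc home-cage libraries, against 8.53 and 8.03 CPM after defeat and 7.92 and 9.83 CPM in mPFC home-cage libraries. The list did not move as one. Of its 2 genes tested between the regions, Myh7 and Ckm, 1 was called higher and 1 lower between the exposed groups by edgeR. In home-cage mice 1 of the 2 had a positive and 1 a negative log2 fold change. Cox4i2, the isoform of Cox4i1 that is linked to low oxygen, stood at 1.11 ± 0.101 CPM per kb, and its share of the pair cannot be given because Cox4i1 was listed at 0. Ndufa4l2, which is related to the complex IV subunit Ndufa4 and is not counted among the 88 genes, had 1.05 and 1.06 CPM after cocaine, 0.876 and 1.12 CPM in NAc home-cage libraries, 0.912 and 0.889 CPM after defeat and 1.098 and 1.19 CPM in mPFC home-cage libraries.

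In complex V, the membrane ring that turns with proton flow is built from subunit c, a protein that 3 genes encode with the same mature sequence. Atp5g1 made up between 25.5% and 28.4% of their summed CPM per kb, Atp5g2 between 33.6% and 40.4%, and Atp5g3 between 34.1% and 38.5%. On this per-kb scale Atp5g1 was lowest in all 8 libraries, and the order of Atp5g2 and Atp5g3 differed between libraries. The place of Atp5g1 depends on the merged exon length, which was 4912 bp for Atp5g1, 1675 bp for Atp5g2 and 2181 bp for Atp5g3. In counts summed over the 8 libraries Atp5g1 was highest, at 50091, against 23178 for Atp5g2 and 30001 for Atp5g3. The peripheral stalk genes, which hold the catalytic head still, had a median of 19.1 CPM per kb over 4 genes. The small membrane accessory genes had 10.4 CPM per kb over 5 genes.

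The 88 genes varied little between libraries. Their coefficient of variation over the 8 libraries had a median of 7.41%, and it was under 10% for 70 of the 88 genes. For the 15886 genes with a mean CPM between those of the lowest and the highest member, the median was 13.2% and 35.9% were under 10%. That range starts at low-count isoforms such as Cox6b2, whereas 77 of the 88 members had at least 1000 counts in every library. The 15886 genes were thus not matched to the members in level, and part of the difference may come from low counts. The steadiest was Ndufa7, an accessory complex I subunit, at 3.10%. Only 3 genes exceeded 20%: Cox8b (31.7%), Cox6b2 (29.8%) and Cox7b2 (20.1%). Ndufaf2, a complex I assembly factor, was next at 18.3%. Taking each gene relative to its own mean, 31 and 23 of the 88 genes were above their mean after cocaine and 43 and 51 in home-cage NAc. In the defeat libraries 73 and 63 genes were above their mean, against 33 and 34 in the mPFC home-cage libraries.

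**Figure D2:**
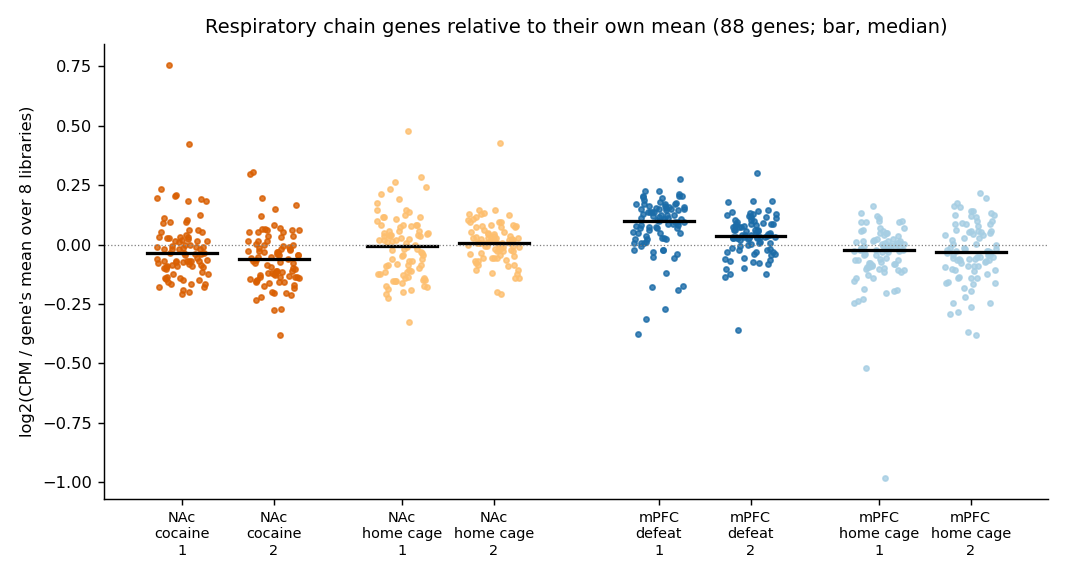
Log2 of each gene's CPM over its own mean of the 8 libraries, by library, with 88 dots per library and a bar at the median. The medians are -0.04 and -0.06 after cocaine, -0.01 and 0.01 in NAc home-cage libraries, 0.10 and 0.04 after defeat and -0.02 and -0.03 in mPFC home-cage libraries.

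The first comparison asked how respiratory chain RNAs in NAc stood 15 minutes after conditioning with cocaine. No member passed edgeR's quasi-likelihood test at an adjusted p under 0.05, as no gene did among the 18418 tested (0%). The log2 fold changes leaned slightly below 0: 61 of 88 were negative, with a median of -0.04 over the members and -0.01 over all tested genes, of which 47.6% were positive. With scaling to genes under 20 kb, 52 of the 88 were negative, and the median was -0.02 over the members and 0.01 over all tested genes. With the unadjusted p under 0.05, 0 members were higher and 1 was lower, where 0.896% and 0.25% of all tested genes were, and DESeq2 called none at an adjusted p under 0.05. Both cocaine libraries lay below both home-cage libraries for 25 members and above them for 5, where 11.9% and 11.8% of all tested genes did so.

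Cox6c, a small complex IV subunit, had 30.6 and 31.4 CPM after cocaine and 35.2 and 37.1 CPM in home-cage libraries. The groups did not overlap, and the log2 fold change was -0.22 (SE 0.0773) with an unadjusted p of 0.0412 and an adjusted p of 1 by edgeR's quasi-likelihood test. Ndufa4, a complex IV subunit once assigned to complex I, had 30.9 and 29.6 CPM after cocaine and 35.6 and 33.8 CPM in home-cage libraries, again without overlap, at a log2 fold change of -0.20 (SE 0.0796). Ndufb2 and Ndufa3, accessory subunits of the complex I membrane arm, had log2 fold changes of -0.21 (SE 0.0892) and -0.16 (SE 0.0837), and Cox8a had -0.19 (SE 0.111). In the other direction, Atp5o, the stalk subunit that meets the catalytic head, had 50.03 and 50.4 CPM after cocaine and 46.8 and 44.8 CPM in home-cage libraries. Its groups did not overlap, and its log2 fold change was 0.13 (SE 0.0748). Ndufaf2 had 0.11 (SE 0.0844), Ndufa2, an accessory subunit of the matrix arm, had 0.12 (SE 0.111), Cox7a1 0.21 (SE 0.215) and Cox8b 0.39 (SE 0.320). None of these log2 fold changes passed.

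By complex, the medians after cocaine were -0.01 for complex I, -0.06 for its assembly factors, -0.07 for complex II, -0.04 for complex III, -0.04 for complex IV and -0.05 for complex V. The catalytic genes differed little: Sdha had 135 and 138 CPM after cocaine and 137 and 139.5 CPM in home-cage libraries, and Atp5b had 456 and 428 CPM after cocaine and 438 and 469.7 CPM in home-cage libraries. Their groups overlapped, and the log2 fold changes were -0.01 (SE 0.0864) and -0.04 (SE 0.113). All 7 core genes of complex I had negative values, from -0.12 for Ndufs7 to -0.01 for Ndufv1, with a median SE of 0.0860. Oligodendrocyte markers, a list of 7 genes, summed to 2525 and 2228 CPM after cocaine and 2362 and 1329 CPM in home-cage libraries, and 7 of 7 had values above 0 in the same comparison with 0 passing. The part of these markers in the respiratory values was not tested.

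The second comparison asked the same of mPFC after social defeat. Here the log2 fold change of 78 of 88 members was above 0, and the members' median was 0.09 against -0.0028 over the 18027 genes tested, of which 48.9% were positive. The differences were small, and no member passed at an adjusted p under 0.05 in edgeR's test, in which 0.704% of all tested genes did (0.549% higher and 0.155% lower), or in DESeq2's. At an unadjusted p under 0.05, 13 members were higher and 0 lower, where 3.79% and 3.36% of all tested genes were. Both defeat libraries lay above both home-cage libraries for 50 members and below them for 1, Ndufb4, where 16.4% and 17.8% of all tested genes did so.

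The smallest p among the members was that of Atp5md, a small membrane subunit known for its part in ATP synthase dimers. It had 37.4 and 34.2 CPM after defeat and 33.1 and 26.0 CPM in home-cage libraries. The groups did not overlap but the home-cage libraries lay far apart, and the log2 fold change was 0.28 (SE 0.0863) with an adjusted p of 0.170 by edgeR's test. Without home-cage replicate 1 Atp5md had a log2 fold change of 0.46, and without home-cage replicate 2 it had 0.11. Ndufaf8, an assembly factor of complex I, had 5.22 and 5.26 CPM after defeat and 4.21 and 4.16 CPM in home-cage libraries. These groups stood apart, at a log2 fold change of 0.33 (SE 0.113), edgeR adjusted p 0.286. Cox6a1, a complex IV subunit, had 121 and 113 CPM after defeat and 93.2 and 111 CPM in home-cage libraries, at a log2 fold change of 0.20 (SE 0.0792). Without home-cage replicate 1 Cox6a1 had a log2 fold change of 0.08, and without home-cage replicate 2 it had 0.32.

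The positive values were spread over the complexes, with medians of 0.08 for complex I, 0.06 for its assembly factors, 0.02 for complex II, 0.09 for complex III, 0.13 for complex IV and 0.11 for complex V. The 5 membrane accessory genes of ATP synthase (Atp5j2, Atp5k, Atp5l, Atp5md and Atp5mpl) had the highest median of any group of subunits, 0.24. In each of the 5 both defeat libraries lay above both home-cage libraries, as they did for 16.4% of all tested genes. They summed to 108 and 105 CPM after defeat and 96.0 and 88.1 CPM in mPFC home-cage libraries, against 101 and 97.7 CPM after cocaine and 109 and 104 CPM in NAc home-cage libraries. In each of the 5 both NAc home-cage libraries also lay above both mPFC home-cage libraries, with a median log2 fold change of 0.14. Of all genes tested between the home-cage regions, 32.2% lay so. Atp5mpl, another small membrane protein, had 14.2 and 14.1 CPM after defeat and 12.4 and 11.6 CPM in home-cage libraries. The 10 common subunit genes of complex IV were all positive with a median of 0.16, among them Cox5b (0.21, SE 0.0792) and Ndufa4 (0.18, SE 0.0788). The peripheral stalk subunit Atp5h had 0.20 (SE 0.0777). The large catalytic genes had smaller values: the 7 core genes of complex I had a median of 0.05, Sdha had 0.04 (SE 0.0763), and Atp5a1 had 0.05 (SE 0.0812). On the negative side, Ndufb4 had -0.13 (SE 0.0970), Ndufb9 -0.07 (SE 0.0830), Atp5g2 -0.07 (SE 0.0846), Cox4i2 -0.09 (SE 0.201) and Sdhb -0.03 (SE 0.0765), and none of these passed.

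**Figure D3:**
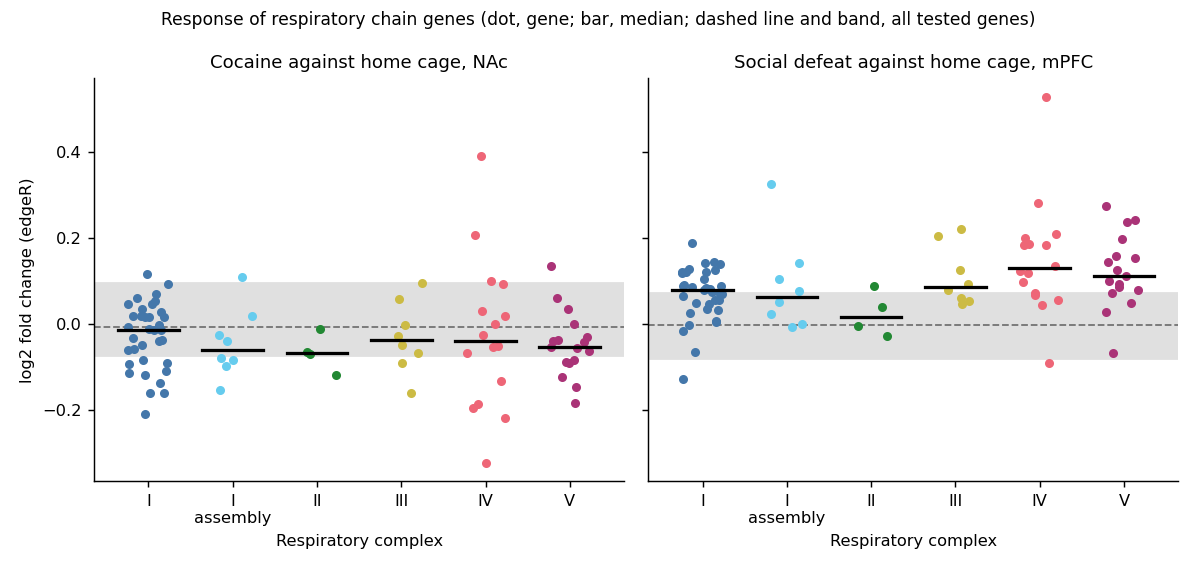
Log2 fold change of each of the 88 genes by complex, for cocaine against home cage in NAc and for social defeat against home cage in mPFC, with a bar at each median. The dashed line and grey band are the median and the middle 50% of all tested genes. After cocaine the medians of the complexes lie between -0.07 and -0.01, and after defeat between 0.02 and 0.13.

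After defeat the shorter genes had the larger values. Spearman's correlation between log2 fold change and gene body length was -0.44 across the 88 genes, which share the same 4 libraries and are not independent. The 28 members with a gene body under 5 kb had a median of 0.13 and the 14 over 20 kb one of 0.04, while all 1557 tested coding genes under 5 kb had 0.02 and the 9022 over 20 kb had -0.00065. In the cocaine comparison the same correlation was -0.12. Markers of red blood cells also moved with defeat: Hba-a1, Hba-a2 and Hbb-bs were all higher in edgeR's test, and the list, in which Alas2 was at 0, summed to 58.3 and 53.0 CPM after defeat and 19.5 and 19.7 CPM in home-cage libraries. Oligodendrocyte markers summed to 1099 and 1202 CPM after defeat and 1484 and 1235 CPM in home-cage libraries, with 7 of 7 log2 fold changes negative and 0 passing. At an unadjusted p under 0.05 by edgeR, 5 of the 7 were lower, where 3.36% of all tested genes were. The part of these markers in the respiratory values was not tested. The immediate early genes were called higher after defeat in 8 of 8 cases by the same test, with Fos at a log2 fold change of 2.09 (SE 0.0874).

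The difference between the responses, cocaine minus home cage in NAc less defeat minus home cage in mPFC, was tested over all 8 libraries. It was negative for 83 of 88 members with a median of -0.12, against -0.00048 over the 18783 genes tested, of which 49.9% were positive. No member passed edgeR's test or DESeq2's at an adjusted p under 0.05, as no gene did in edgeR's (0%), and at an unadjusted p under 0.05 there were 0 positive and 6 negative members, where 1.38% and 0.831% of all tested genes were. The lowest unadjusted p was that of Ndufa4 (-0.38, SE 0.0920), followed by Cox6c (-0.34, SE 0.0906), Ndufa3 (-0.29, SE 0.107), Atp5j2 (-0.22, SE 0.0838), Atp5h (-0.25, SE 0.0995) and Atp5md (-0.42, SE 0.171). For Ndufa4 that p was 0.00421 and its adjusted p by edgeR was 1. Only 5 members were positive, Cox8b (0.32, SE 0.414), Cox7a1 (0.16, SE 0.246), Ndufaf2 (0.09, SE 0.136), Ndufb9 (0.08, SE 0.148) and Ndufa10 (0.06, SE 0.1001), and none of them passed. This contrast uses the same libraries as the 2 comparisons above and is no separate evidence for either. Region, experience and the table in which the counts were deposited cannot be told apart in it.

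The regional comparison in home-cage mice asked how NAc differed from mPFC without either experience. Of all 18300 tested genes 12.4% passed, whereas 1 of the 88 members did. It was higher in NAc, as were 7.01% of all tested genes, and 5.35% were lower. The 88 values were nearly balanced around 0, with 47 positive and 41 negative values and a median of 0.03 against 0.01 over all genes. With scaling to genes under 20 kb, 63 of the 88 were positive, and the median was 0.077 over the members and 0.055 over all genes. NAc was above mPFC in all 4 libraries for 30 members and below it for 16, where 32.2% and 31.2% of all tested genes did so. In bulk tissue, fewer cells of a type and less RNA per cell cannot be told apart.

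The gene that passed was Ndufaf2, which helps complete complex I and lies at chr13:108002715-108158623 on the minus strand of GRCm38, the longest gene body of the 88 at 156 kb. It had 29.3 and 27.3 CPM in NAc and 21.4 and 20.7 CPM in mPFC of home-cage mice. The groups stood apart, and the log2 fold change was 0.42 (SE 0.0949) with an adjusted p of 0.0473 by edgeR's test. Without mPFC home-cage replicate 1 or 2 it no longer passed, at log2 fold changes of 0.44 and 0.39 and edgeR adjusted p-values of 0.358 and 0.396, and in these runs 0 of all tested genes passed. The gene overlaps Smim15 and a noncoding gene on the other strand, and whether reads were counted by strand is not given in the sources used here. The same limit holds for other members, as 23 of the 88 overlap a protein-coding gene. Among these are Atp5md and, of the genes called between the exposed groups below, Atp5d, Atp5j, Atp5pb, Cox6c and Uqcrc2. Ndufaf5, another assembly factor, did not pass and had 34.7 and 28.9 CPM in NAc and 26.5 and 24.1 CPM in mPFC of home-cage mice, at 0.33 (SE 0.125). The membrane arm subunits Ndufa3 and Ndufa1 had 0.26 (SE 0.0939) and 0.31 (SE 0.135). Cox6b2 had 0.345 and 0.333 CPM in NAc and 0.125 and 0.190 CPM in mPFC of home-cage mice, at 1.11 (SE 0.330), edgeR adjusted p 0.0882.

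Among genes lower in NAc of home-cage mice, 0 passed edgeR's test or DESeq2's. At an unadjusted p under 0.05, 4 members were higher and 1, Sdha, was lower, where 17.1% and 14.4% of all tested genes were. Sdha had 137 and 139.5 CPM in NAc and 163 and 166 CPM in mPFC of home-cage mice. These groups did not overlap, and the log2 fold change was -0.25 (SE 0.0990), edgeR adjusted p 0.157. Ndufa10, an accessory complex I subunit, had -0.23 (SE 0.0969), the stalk subunit Atp5o -0.20 (SE 0.0879), and the complex IV subunits Cox7b and Cox7a2 -0.21 (SE 0.0949) and -0.20 (SE 0.107). The number of calls rested on single libraries: without NAc home-cage replicate 2, whose striatal markers were the lowest of the NAc libraries, 8 members passed as higher and 7 as lower, and without replicate 1, 2 passed as higher and 0 as lower. The calls over all tested genes moved in the same way, to 42.9% without replicate 2 and 29.6% without replicate 1.

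NAc of cocaine mice was then set against mPFC of defeated mice, 4 libraries that the home-cage comparison does not use. In this comparison region and experience cannot be told apart. Of the 88 members 13 passed, 12 lower and 1 higher in NAc of cocaine mice, where 36.3% of the 18362 tested genes passed, 17.1% lower and 19.2% higher. The members' share, 14.8%, was thus below that of all genes, while their values leaned one way: 70 of 88 were negative, with a median of -0.11 against 0.01 over all genes. With scaling to genes under 20 kb, 54 of the 88 were negative, the median was -0.05, and 5 passed as lower and 1 as higher. That scaling moved all tested genes too, to a median of 0.07, and 33.6% of them passed. The members' median minus that of all genes was -0.122, against -0.123 in the reported fit. Both cocaine libraries lay below both defeat libraries for 49 members and above them for 7, where 36.9% and 37.3% of all tested genes did so. Short genes at large leaned as the members did. The 1582 tested coding genes with a gene body under 5 kb had a median of -0.10, and the 28 members of that length had -0.11. Over 20 kb the medians were 0.04 for 9088 coding genes and -0.02 for 14 members. The part of gene length in the members' values was not tested.

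Complex IV gave 5 of the 12 lower genes. Cox8a (chr19:7215153-7217616, minus strand, GRCm38) had 109 and 104 CPM in NAc of cocaine mice and 147 and 138 CPM in mPFC of defeated mice. The groups stood well apart, at a log2 fold change of -0.42 (SE 0.0752) and an adjusted p of 0.0112 by edgeR's test. Cox7b had 22.8 and 23.5 CPM in NAc of cocaine mice and 31.3 and 29.3 CPM in mPFC of defeated mice, at -0.39 (SE 0.0661), edgeR adjusted p 0.00973. In the home-cage libraries the same gene had 22.9 and 23.5 CPM in NAc and 25.7 and 27.7 CPM in mPFC, so its NAc levels overlapped between the sets and its mPFC levels were above the home-cage ones in both defeat libraries. Ndufa4 had 30.9 and 29.6 CPM in NAc of cocaine mice and 38.7 and 38.0 CPM in mPFC of defeated mice, at -0.34 (SE 0.0616), whereas in home-cage mice its groups overlapped, with 35.6 and 33.8 CPM in NAc and 34.4 and 33.3 CPM in mPFC. Cox7a2 had -0.31 (SE 0.0653) and Cox6c -0.26 (SE 0.0606).

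Complex V gave 3, Atp5d, Atp5j and Atp5pb. Atp5d, a subunit of the rotating central stalk, had 89.4 and 90.7 CPM in NAc of cocaine mice and 117 and 106 CPM in mPFC of defeated mice. Its groups did not overlap, at -0.31 (SE 0.0758), edgeR adjusted p 0.0279. The peripheral stalk subunits Atp5j (coupling factor 6) and Atp5pb (subunit b) had -0.28 (SE 0.0613) and -0.26 (SE 0.0600). Complex III gave its core proteins Uqcrc1, with 113 and 112 CPM in NAc of cocaine mice and 143 and 129.9 CPM in mPFC of defeated mice at -0.28 (SE 0.0786), and Uqcrc2, at -0.27 (SE 0.0818), edgeR adjusted p 0.0496. The groups of Uqcrc1 stood apart, and Uqcrc2 was at the edge of the threshold.

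Complex II gave Sdha, with 135 and 138 CPM in NAc of cocaine mice and 175 and 162 CPM in mPFC of defeated mice at -0.30 (SE 0.0780). Its 4 NAc libraries lay between 135.4 and 139.5 CPM and its 4 mPFC libraries between 161.5 and 175.3 CPM, so that the regions did not overlap in either set. Complex I gave Ndufa8 alone, at -0.21 (SE 0.0621), the second gene whose promoter above holds NRF1 matches. The core genes Ndufs1 and Ndufv1 had -0.07 (SE 0.0744) and -0.12 (SE 0.0759) and did not pass. Among the other catalytic and ring genes, Atp5b had -0.28 (SE 0.0921), Atp5a1 -0.21 (SE 0.0892), Atp5g1 -0.15 (SE 0.0598) and Atp5g3 -0.15 (SE 0.0718), and none of these passed.

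The gene higher in NAc was again Ndufaf2, with 29.7 and 31.2 CPM in NAc of cocaine mice and 19.5 and 23.2 CPM in mPFC of defeated mice. The groups stood apart, at 0.52 (SE 0.0985), edgeR adjusted p 0.0132. Over both sets its 4 NAc libraries were therefore all above its 4 mPFC libraries. It was the one gene of the 88 that passed in both regional comparisons. Of the 12 genes called lower, 10 also had negative values in home-cage mice, the exceptions being Ndufa4 and Cox6c, and over all 88 genes 57 had the same sign in both.

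**Figure D4:**
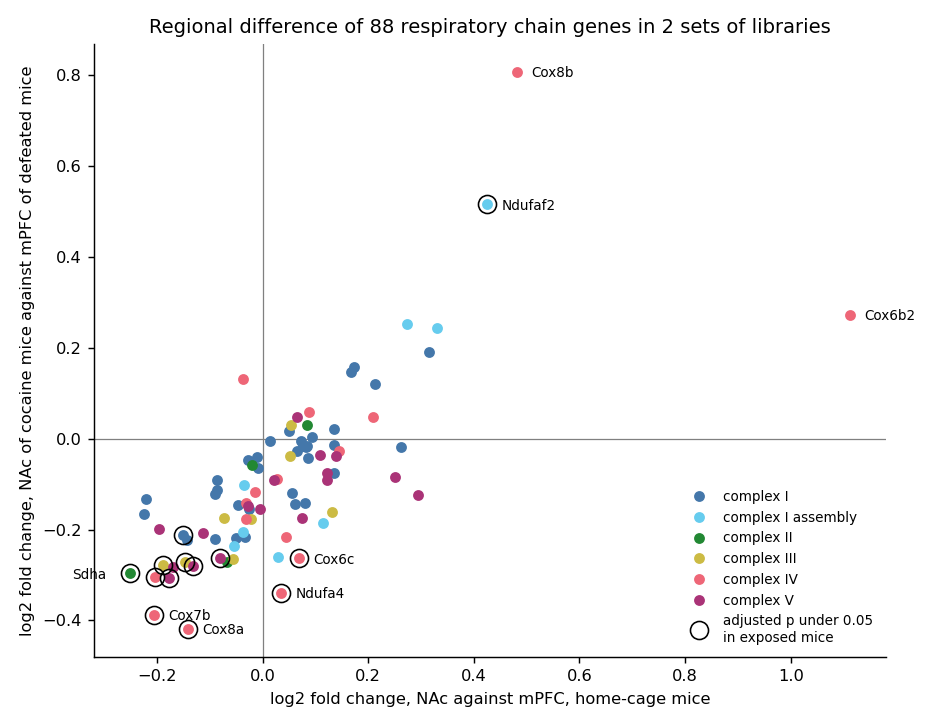
Log2 fold change of NAc against mPFC for the 88 genes, in home-cage mice on the horizontal axis and between cocaine NAc and defeat mPFC on the vertical axis, coloured by complex. Circled genes passed at an adjusted p under 0.05 in the exposed mice. Ndufaf2 stands at 0.42 and 0.52, and the 12 circled genes below 0 lie between -0.42 and -0.21 on the vertical axis.

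These calls also rested on single libraries. Without defeat replicate 1 no member passed, when Ndufaf2 had 0.39 and an edgeR adjusted p of 0.0917, and without defeat replicate 2 Ndufaf2 alone did, whereas without cocaine replicate 1 there were 25 lower and 1 higher and without cocaine replicate 2 there were 20 lower and 5 higher. Of all tested genes, 5.98% passed without defeat replicate 1 and 8.23% without defeat replicate 2, against 44.0% without cocaine replicate 1 and 49.7% without cocaine replicate 2. In each of these runs the lone library of a group is assumed to vary as the other group's libraries do. Cox8a had log2 fold changes between -0.47 and -0.38 over these 4 runs. Markers of other cell types moved in the same comparison. The 7 oligodendrocyte markers were all called higher, summing to 2525 and 2228 CPM in NAc of cocaine mice and 1099 and 1202 CPM in mPFC of defeated mice. Of the 6 astrocyte markers 3 were called lower, with sums of 2441 and 2542 CPM in NAc of cocaine mice and 3402 and 3511 CPM in mPFC of defeated mice. Of the 5 genes listed for interneurons Pvalb and Vip were called lower. Gad1 and Gad2, which are not particular to interneurons, were called higher. The 3 detected blood markers were called lower. Their part in the respiratory values was not tested.

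**Figure D5:**
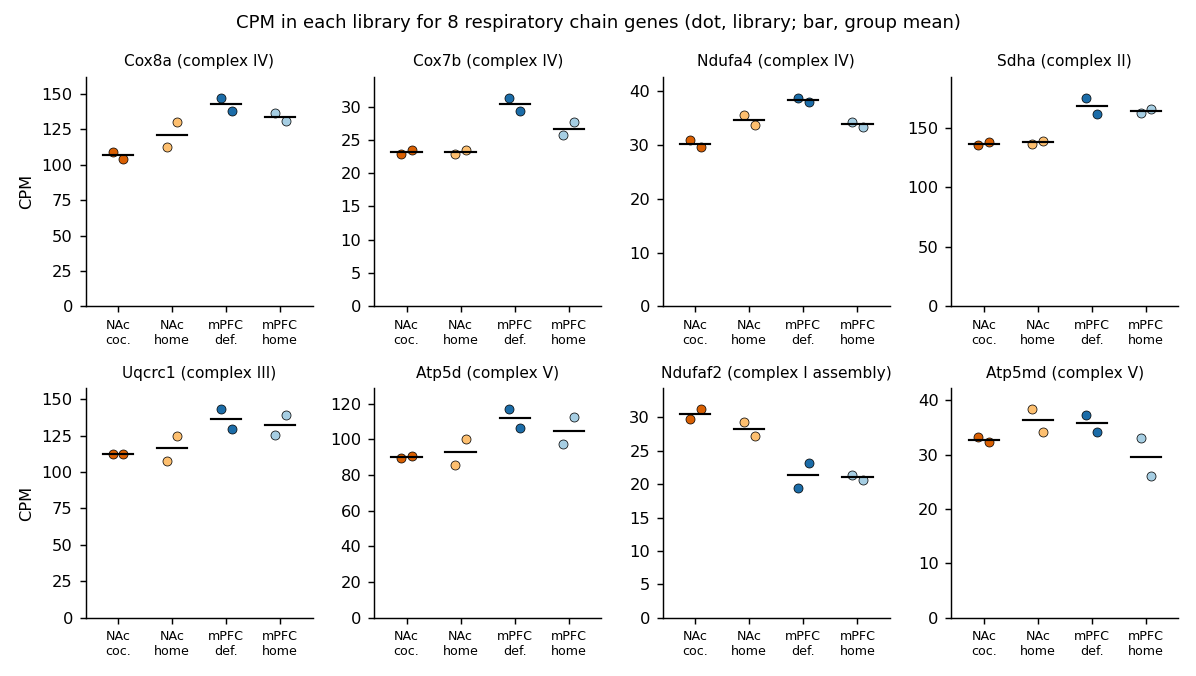
CPM in each library (dots) and group means (bars) for 8 genes, each panel with its own axis from 0. For Cox8a, Cox7b, Sdha and Atp5d the cocaine libraries lie below both defeat libraries, for Ndufaf2 above them, and the 2 mPFC home-cage values of Atp5md lie far apart at 33.1 and 26.0 CPM.

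Genes of neighbouring pathways were looked at in the same fits. Of the 16 genes of the citric acid cycle and pyruvate dehydrogenase, which feed the chain with NADH, 9 were called lower in NAc of cocaine mice against mPFC of defeated mice and 0 higher, where 17.1% and 19.2% of all tested genes were, with a median of -0.24. Idh3g, a subunit of isocitrate dehydrogenase, had -0.39 (SE 0.0725) and Dld, a subunit shared by the dehydrogenase complexes, -0.32 (SE 0.0622). The list summed to 1156 and 1137 CPM in NAc of cocaine mice and 1407 and 1316 CPM in mPFC of defeated mice, and to 1164 and 1179 CPM in NAc and 1308 and 1332 CPM in mPFC of home-cage mice, in whom 0 passed and the median was -0.17. Of 16 glycolysis genes 10 were called lower in NAc of cocaine mice and 0 higher, with a median of -0.37. In home-cage mice Aldoc, an aldolase, was called lower in NAc (-0.60, SE 0.116) and the median was -0.30. Pgk1 and Pgam1 had -0.51 (SE 0.0794) and -0.45 (SE 0.0835) between the exposed groups. The list medians were therefore lower than that of the respiratory genes in both regional comparisons, which was -0.11 in exposed and 0.03 in home-cage mice, a difference that was not tested.

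Of 14 genes for cytochrome c, coenzyme Q and the adenine nucleotide and phosphate carriers, 2 were called higher and 2 lower between the exposed groups: Coq8a, a coenzyme Q synthesis gene, had 0.72 (SE 0.0753), and Cycs, which encodes cytochrome c, had -0.26 (SE 0.0630). Of the 14 values 3 were positive and 11 negative, with a median of -0.10. Of 29 assembly factors of complexes III, IV and V, 26 were tested and 3 were listed at 0. Between the exposed groups 2 were called higher and 3 lower, with Coa7 at -0.41 (SE 0.0951) and Ttc19 at -0.26 (SE 0.0652). Of 15 regulators of mitochondrial biogenesis 4 were called higher and 1, Tfam, lower between the exposed groups, with 7 positive and 8 negative values. The share called in either direction was in each of these 3 lists below the 36.3% of all tested genes called in this comparison. In home-cage mice 12 of the 15 regulators had positive values, with a median of 0.09, and after cocaine 12 had negative values, with a median of -0.06. Esrrg, a nuclear receptor, and Gabpb2, a subunit of the GA-binding protein family, were called higher in NAc in both regional comparisons. Esrrg had 1.02 (SE 0.105) between the exposed groups and 0.81 (SE 0.104) in home-cage mice, and Gabpb2 had 0.67 (SE 0.0845) and 0.77 (SE 0.120). The coactivator Ppargc1a had -0.06 (SE 0.0850) and 0.01 (SE 0.0994) and passed in neither. In the comparisons of experience, 0 genes of these 5 lists passed edgeR's test. Of the 87 genes tested, 0 had an unadjusted p under 0.05 by edgeR after cocaine and 4, all higher, after defeat. Of all tested genes, 0.896% were higher and 0.25% lower at that threshold after cocaine, and 3.79% and 3.36% after defeat.

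Several core subunits and isoforms were followed in every comparison whether or not they passed. Ndufs1 had log2 fold changes of -0.06 after cocaine, 0.0037 after defeat and -0.01 between the home-cage regions, and Ndufv1 had -0.01, 0.03 and -0.09 in the same order. Sdhb had -0.07 after cocaine, -0.02 between the home-cage regions and -0.06 between the exposed groups. Uqcrc1 had -0.05 after cocaine, 0.05 after defeat and -0.19 between the home-cage regions. All of these were under 0.2 in size, whereas between the exposed groups Uqcrc1 had -0.28 and passed, as given above. The Rieske protein gene Uqcrfs1 had -0.16 after cocaine, 0.05 after defeat, -0.06 between the home-cage regions and -0.27 between the exposed groups.

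In complex IV, Cox5a, which lies on the matrix side, had 0.03 after cocaine, 0.14 after defeat, -0.01 between the home-cage regions and -0.12 between the exposed groups. Cox6a1 had -0.07, 0.04 and -0.22 after cocaine, between the home-cage regions and between the exposed groups. Cox7a2l, which takes part in joining complexes III and IV into supercomplexes, had -0.05, 0.07, 0.03 and -0.09 in the order cocaine, defeat, home-cage regions and exposed groups. None of these passed. In the same order Cox7a1 had 0.21, 0.04, -0.04 and 0.13, Cox8b had 0.39, 0.07, 0.48 and 0.81, and Cox4i2 had -0.13, -0.09, 0.09 and 0.06. The SE of Cox8b was wide in each, from 0.291 between the home-cage regions to 0.356 after defeat, and neither these isoforms nor Ndufa4l2 passed in any comparison. For the c-subunit genes, Atp5g1 had -0.08, 0.07 and -0.0048, Atp5g2 had -0.09, -0.07 and 0.07, and Atp5g3 had -4.8e-05, 0.13 and -0.03, after cocaine, after defeat and between the home-cage regions. Atp5g2 was 0.05 between the exposed groups, and no c-subunit gene passed in any comparison.

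Genes with an NRF1 motif in their promoter had a median log2 fold change of -0.15 over 15 genes between the exposed groups, and those without it -0.11 over 60 genes. In home-cage mice the medians were 0.03 and 0.03, after defeat 0.08 and 0.09, and after cocaine -0.07 and -0.03. With the ETS motif the exposed medians were -0.13 over 14 genes and -0.11 over 61 genes. These values are descriptions, and the differences were not tested.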

How the data were processed

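Total RNA-seq libraries from mouse NAc and mPFC were used, 2 per group. The authors deposited a table of raw counts by gene symbol for each region. The submitters' processing notes name STAR 2.7.1a, featureCounts and the mm10 build. For the annotation, the strand setting and intronic reads, the choices made were not given in the sources used here.

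Counts as deposited were fitted with edgeR 4.0.16 (R 4.3.3): filterByExpr, TMM scaling, a quasi-likelihood test and Benjamini-Hochberg adjustment over all tested genes, with an adjusted p under 0.05 as the threshold. Each comparison was fitted on its own 4 libraries, and the difference between the responses on all 8. SE is the log2 fold change over the square root of F. CPM used TMM factors over the 8 libraries, and lengths came from GENCODE M21 (GRCm38). Exon length was that of the merged exons of all transcripts of a gene. With 2 libraries a group an exact permutation test cannot go below a p of 0.333, so none is given for single genes. The steps were tested on simulated counts.

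Genes were named by rule: per comparison the members that passed, up to 12 in each direction; where under 5 passed, the 5 lowest p-values of either direction; a set of core subunits and isoforms in every comparison; and up to 2 genes of each other list. Genes given with levels or motifs, Atp5md in the difference between responses, Hba-a2, Gad1, Gad2, Tfam and Ppargc1a were named after their values were seen. The members and lists were chosen with earlier results of these data known. Alternatives were RLE factors, library totals, scaling to genes under 20 kb, other low-count filters, DESeq2 1.42.0, all 8 libraries in the fit, a replicate block and leaving out each library. Library totals of 111901829 to 179479978 counts limit mainly the low isoforms, and no interval was computed from counts.

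Replicates differed by far more than sampling noise, so none was merged. Python 3.11.15, pandas 2.3.3 and matplotlib 3.10.9 made the tables and figures.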

Additional observations from a re-analysis of the deposited data

How the results depend on the processing

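The medians over the 88 genes kept their sign in all 5 comparisons under each alternative run, and no named gene called in the reported fits changed sign. Between the home-cage regions, the fit with all 8 libraries called 3 members higher and 1 lower, and scaling to genes under 20 kb gave a median of 0.077. Between the exposed groups that scaling gave 5 members lower and a median of -0.049. The median over all tested genes moved as well, to 0.055 between the home-cage regions and 0.073 between the exposed groups. With that scaling the members' median minus that of all genes was 0.0219 and -0.122, against 0.0217 and -0.123 in the reported fits. The cause of the shift was not tested. Leaving out 1 library at a time gave medians of -0.071 to -0.025 after cocaine, 0.058 to 0.12 after defeat, 0.0049 to 0.034 between the home-cage regions, -0.14 to -0.081 between the exposed groups and -0.17 to -0.097 for the difference between the responses. The same runs called 0 to 2 members higher after defeat, 0 to 8 higher and 0 to 7 lower between the home-cage regions, and 0 to 5 higher and 0 to 25 lower between the exposed groups, while the calls over all tested genes ranged over 58 to 238 after defeat, 0 to 8048 between the home-cage regions and 1133 to 9334 between the exposed groups. With the replicate block, 0 members were called after cocaine at a median of -0.04, 1 was called higher and 0 lower between the home-cage regions at a median of 0.03, and 0 were called for the difference between the responses at a median of -0.12. Over all genes the block raised the calls after cocaine to 38, against 0 without it. Same-numbered NAc libraries deviated together (Pearson's r 0.66 across 16945 genes, 0.45 across the 88), but with 2 pairs and no label tying them the numbers were not taken as pairs, and in the difference the block covered the NAc libraries alone. No block was fitted for defeat against home cage or between the exposed groups, since the defeat titles share no number with the others. Depth limits Cox6b2 and Cox8b, which had 17 to 62 counts a library.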

Other observations

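Within groups, the 88 genes differed between the 2 libraries by a median absolute log2 ratio of 0.0879 after cocaine, 0.0989 in NAc home-cage, 0.0763 after defeat and 0.0690 in mPFC home-cage libraries, against 0.130, 0.203, 0.0930 and 0.115 over 16945 genes. Those genes had at least 10 counts in every library and were not matched to the members in level.
In both NAc groups replicate 1 was above replicate 2 for Cox7b2, by log2 ratios of 0.80 after cocaine and 0.34 in the home cage, and for the complex I accessory subunit Ndufs4, by 0.23 and 0.35. In both it was below replicate 2 for Ndufb8, another accessory subunit, at -0.23 after cocaine and -0.40 in the home cage. After defeat the ratios of Cox7b2 and Ndufs4 were -0.42 and -0.21, and that of Ndufb8 was 0.01. They were picked with their values in view.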
